A study of Mus musculus with 36 samples.

Results

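The transcriptional response of control myotubes to electrical pulse stimulation (EPS) was compared between replicates 1 to 3 and replicates 4 to 6 of the same conditions. The 18 control libraries of the 36 in the series were taken by their titles, 9 from replicates 1 to 3 and 9 from replicates 4 to 6, with 3 libraries for each combination of condition and replicate range. C2C12 is a mouse myoblast line whose cells fuse into multinucleate myotubes in low-serum medium, and all control libraries came from cells transfected with a negative control antisense LNA on the day before the experiment. On day 4 of differentiation the myotubes underwent EPS for 3 h and were harvested either at its end (EPS 0h) or when a further 3 h had passed (EPS 3h), and in Rest plates the electrodes stood in the medium without current. The values are the authors' counts per gene from stranded poly-A libraries, and levels are given as RPM, a library's reads on a gene scaled to a common total. Each library came from 1 well, and the paper describes 2 independent experiments with 3 wells per condition, but neither it nor the labels name the experiment of each replicate number. The comparison is therefore between 1 range of replicate numbers and the other, and a p-value measures the spread between wells.

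EPS makes cultured myotubes contract and is used as an in vitro model of exercise. Contraction raises calcium and metabolic demand, and immediate early genes, heat shock genes and the coactivator *Ppargc1a* (PGC-1α) are textbook responders. *Esrra* encodes the estrogen-related receptor ERRα, an orphan nuclear receptor that works with PGC-1α at genes of mitochondrial respiration.

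The total count per library lay between 17451381 and 22812123. All 11 differentiated myotube markers that passed the filter on low counts were expressed in every library, with a summed level of 17275 to 23555 RPM in replicates 1 to 3 and 15974 to 20139 RPM in replicates 4 to 6. The 22 markers of proliferating or undifferentiated cells summed to 790 to 1060 RPM and 1015 to 1349 RPM, and the ranges of the replicates did not overlap in any of the 3 conditions. The gap was narrow at EPS 3h, from 1000 RPM in replicate 3 to 1015 RPM in replicate 6. Over all genes, 30.6% differed between the ranges at Rest, 43.7% at EPS 0h and 36.5% at EPS 3h (FDR under 0.05, fits given below). In bulk RNA, fewer cells of a type and less RNA per cell cannot be told apart. EPS 3h replicate 3 stood apart from its partners, since the SD of log2 differences was 0.613 to 0.648 in the 2 pairs that hold it and 0.279 to 0.437 in the other 16 pairs within a group. Its mitochondrially encoded transcripts took 0.924% of the counts, against 1.66% and 1.79% in EPS 3h replicates 1 and 2. Rest replicate 6 also differed from its partners, with 1.37% mitochondrially encoded transcripts against 2.07% and 2.05%, and 2.92% ribosomal protein transcripts against 4.11% and 4.07%. Results at EPS 3h are therefore given with and without EPS 3h replicate 3.

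The response to EPS went the same way in both ranges of replicates for nearly every gene that responded in both, and it was broader in replicates 1 to 3. In the fit to 18 libraries, 6252 of 13995 genes (44.7%) passed an FDR of 0.05 at EPS 0h in replicates 1 to 3, with 3342 higher and 2910 lower than at Rest. In replicates 4 to 6, 3673 genes passed (26.2%), 2365 higher and 1308 lower. Both responses passed for 2917 genes, and 2908 of these had the same direction. At EPS 3h the counts were 7254 (51.8%) and 6325 (45.2%), with 5035 genes in both and 5028 in the same direction. Across genes, the log2 fold changes (log2FC) of the 2 responses, which share no library, correlated with a Pearson r of 0.864 at EPS 0h and of 0.931 at EPS 3h. These are descriptions over genes, which are not independent replicates. The median absolute log2FC at EPS 0h was 0.351 in replicates 1 to 3, against 0.233 in replicates 4 to 6.

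The difference of the responses was tested as an interaction, EPS minus Rest in replicates 1 to 3 less EPS minus Rest in replicates 4 to 6. With all 18 libraries it passed an FDR of 0.05 for 8 genes at EPS 0h (0.0572%) and for 7 at EPS 3h (0.05%), while 1916 and 1804 genes had an unadjusted p under 0.05 and DESeq2 called 270 and 334. The 8 genes at EPS 0h were *Crebzf*, *H2aj*, *Snhg20*, *Srsf5*, *Hoxc11*, *Pabpn1* and *Ddit4* with a negative interaction and the pseudogene *Gm4366* with a positive one. The 7 at EPS 3h were *Nell2*, *Dynap*, *Gpr176* and *Gm4366* (positive) and *Hoxc11*, *Armcx4* and *Dync2i1* (negative). The count depended on which libraries were in the fit. Without EPS 3h replicate 3, which takes no part in the EPS 0h contrast except through the shared estimate of the spread, 1088 genes passed at EPS 0h and 1289 at EPS 3h. Without Rest replicate 6 the counts were 30 and 392, and without EPS 3h replicate 2 they were 47 and 3. Fitted to the 12 libraries of the contrast alone, the EPS 0h interaction passed for 1110 genes (7.93%), and 940 of these also passed without EPS 3h replicate 3. The values below are from the 12-library fit for EPS 0h and from the 17-library fit without EPS 3h replicate 3 for EPS 3h unless the 18-library fit is named. These fits were chosen after the data had been seen.

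**Figure D1:**
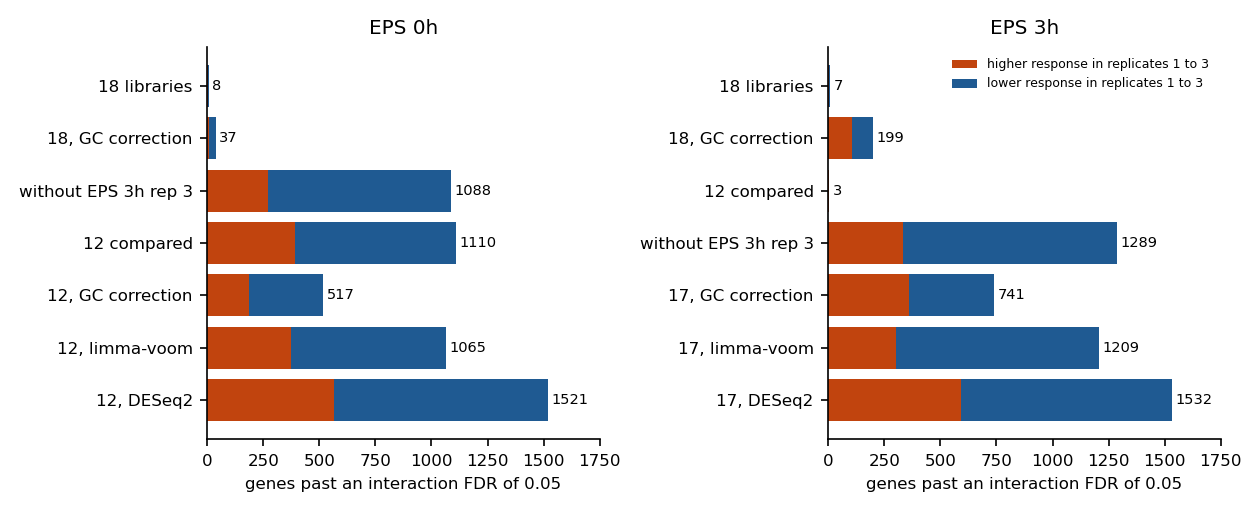
Bars give the number of genes past an FDR of 0.05 in the difference of the EPS response between replicates 1 to 3 and 4 to 6, for EPS 0h and EPS 3h, in 7 fits each. The 18-library fits call 8 and 7 genes, the 12-library fit for EPS 0h 1110 and the 17-library fit for EPS 3h 1289.

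Most called genes had the larger response in replicates 1 to 3. At EPS 0h, 393 interactions were positive (2.81% of genes tested) and 717 negative (5.12%), so 35.4% of the calls were positive, and 16.1% were with scaling by library size only. By response, 585 genes changed in replicates 1 to 3 only, 238 higher and 347 lower than at Rest, and 108 changed in replicates 4 to 6 only, 63 higher and 45 lower. A gene was placed there if the interaction and the response of 1 range passed an FDR of 0.05 and the other range had an unadjusted p of at least 0.05. Another 238 genes responded in both and in the same direction, 212 of them more in replicates 1 to 3, 57 responded in opposite directions and 122 fell in none of these classes. With the GC correction described below, 188 interactions were positive and 329 negative, 270 genes changed in replicates 1 to 3 only (100 higher, 170 lower), and 51 of the 63 that responded in both and in the same direction did so more in replicates 1 to 3. The responses themselves passed for 54.4% and 37.4% of genes in this fit.

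At EPS 3h, 331 interactions were positive (2.37%) and 958 negative (6.85%), 9.21% of genes in all. The positive share was 25.7%, and 17.2% with scaling by library size only. With GC correction 359 interactions were positive and 382 negative, so negative ones made up 51.6% of the calls. Replicates 1 to 3 alone responded for 505 genes (174 higher, 331 lower), replicates 4 to 6 alone for 90 (65 higher, 25 lower), and 567 responded in both and unequally, 554 of them more in replicates 1 to 3. With GC correction, replicates 1 to 3 alone responded for 371 genes, of which more rose than fell (206 higher, 165 lower), and 173 of the 185 unequal responses were larger in replicates 1 to 3. The responses passed for 62.1% and 54.6% of genes. Of the called interactions, 389 at EPS 0h and 407 at EPS 3h held in every fit that left out a further library. The Rest libraries enter both time points, so the lists of EPS 0h and EPS 3h are not independent.

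**Figure D2:**
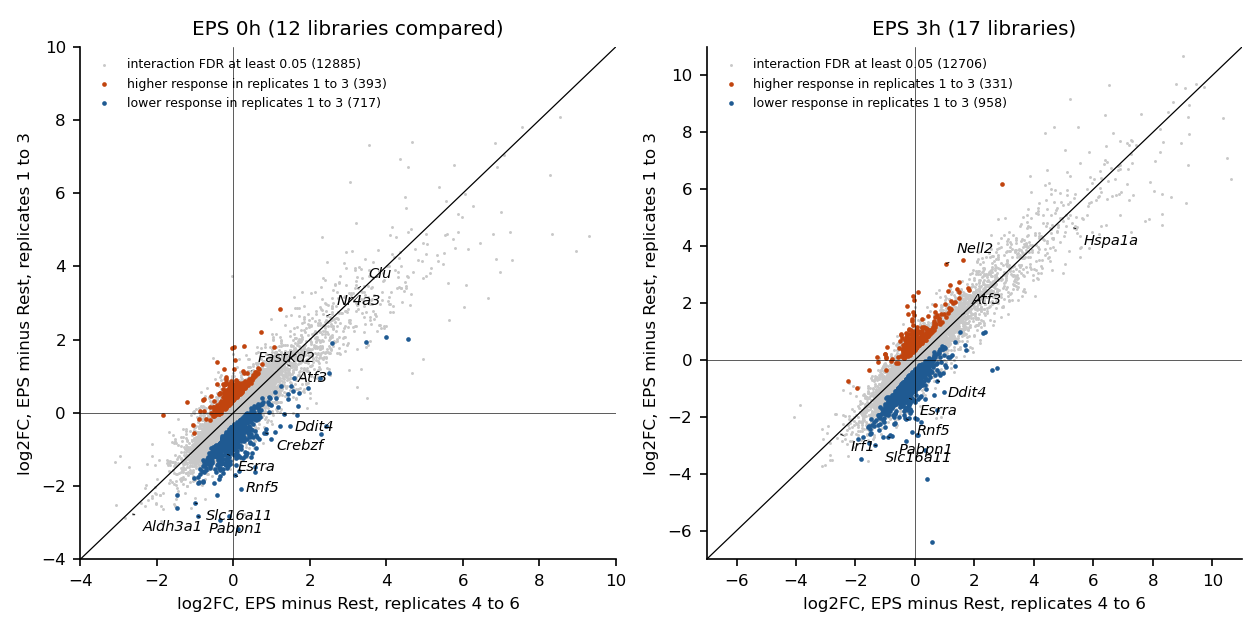
Each point is a gene, with its log2FC of EPS minus Rest in replicates 4 to 6 on the x axis and in replicates 1 to 3 on the y axis, at EPS 0h (12 libraries) and EPS 3h (17 libraries). Genes with a called difference are coloured by its sign (393 positive and 717 negative at EPS 0h, 331 and 958 at EPS 3h), the rest are grey, and the line marks equal responses.

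The sign of the difference went with the base composition of the transcripts. The interaction correlated with transcript GC content across genes (r = -0.384 at EPS 0h and -0.327 at EPS 3h, 13946 genes), and the median GC content was 44.4% in genes with a positive and 55.8% in genes with a negative interaction at EPS 0h, against 49.2% over all genes. In transcripts of up to 40% GC the median response at EPS 0h was 0.37 in replicates 1 to 3, against 0.10 in replicates 4 to 6, with 64 positive and 2 negative interactions. In transcripts above 60% GC the medians were -0.48 and -0.09, with 0 positive and 120 negative interactions. Libraries showed the same order: the correlation of a library's deviation from the mean of the control libraries with GC content was -0.472 to -0.335 at EPS 0h in replicates 1 to 3 and 0.182 to 0.278 in replicates 4 to 6, while at Rest it was 0.0852 to 0.148 and 0.174 to 0.320. EPS 3h replicate 3 lay at 0.232, and EPS 3h replicates 1 and 2 at -0.329 and -0.418. After a GC correction within each library, 517 genes (3.71%) passed at EPS 0h, 375 of them among the 1110, and 741 (5.31%) at EPS 3h, 558 of them among the 1289. Whether the GC content had a part in these differences was not tested, and GC-corrected values are given for many of the genes below. Genes picked by class of response from the fits chosen after seeing the data had to pass with GC correction as well. Their GC-corrected values therefore do not show how calls in general held, for which the counts above stand.

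**Figure D3:**
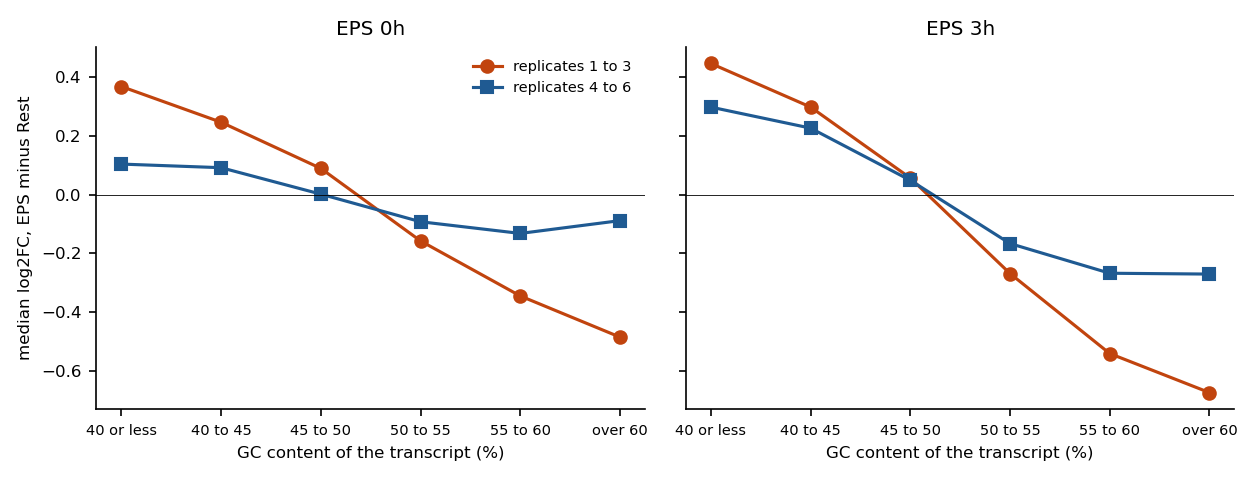
Points give the median log2FC of EPS minus Rest of genes binned by transcript GC content (percent, x axis), for replicates 1 to 3 and 4 to 6, at EPS 0h and EPS 3h. At EPS 0h the medians of replicates 1 to 3 run from 0.37 in the lowest bin to -0.48 in the highest, and those of replicates 4 to 6 from 0.10 to -0.09.

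*Esrra* (ENSMUSG00000024955, chr19:6888338-6899336 on the minus strand of GRCm39) was lower after EPS in replicates 1 to 3 only. It had been named for this pattern from earlier results of these data, so its tests are not independent evidence. At Rest, replicates 1 to 3 were at 33.6, 37.5 and 38.8 RPM and replicates 4 to 6 at 39.6, 37.3 and 28.3 RPM. At EPS 0h, replicates 1 to 3 were at 14.9, 19.2 and 16.4 RPM and replicates 4 to 6 at 31.6, 35.2 and 30.0 RPM. The EPS 0h libraries of replicates 1 to 3 were thus the lowest of the 12, while those of replicates 4 to 6 lay within their range at Rest. The log2FC was -1.14 (SE 0.120, FDR 1.82e-06) in replicates 1 to 3 and -0.16 (SE 0.115, FDR 0.308) in replicates 4 to 6, and the interaction was -0.98 (SE 0.166, 95% interval -1.33 to -0.63, FDR 0.00309). It was -0.62 (FDR 0.0287) with GC correction and -1.0 (SE 0.387, FDR 0.265) in the 18-library fit, where it was not called.

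At EPS 3h, *Esrra* was at 17.6, 12.2 and 42.1 RPM in replicates 1 to 3 and at 33.5, 32.6 and 28.1 RPM in replicates 4 to 6. The value of 42.1 RPM belongs to EPS 3h replicate 3 and lay above all Rest libraries. The interaction was -0.45 (FDR 0.671) with that library and -1.16 (SE 0.195, FDR 0.00106) without it, and -0.74 (FDR 0.0141) with GC correction. *Esrra* overlaps *Trmt112* on the opposite strand, and whether the counting used the strand is not given in the sources used here. Among the 24 tested genes of ERR and PGC-1 signalling and mitochondrial biogenesis, *Esrra* was the only call at EPS 0h (1 of 24, against 7.93% of all genes), and 2 of 24 were called at EPS 3h.

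The start of the longest coding exon is shown for *Esrra* and for 5 further genes named for their difference at EPS 0h, to show how their base composition varied. *Slc16a11* (chr11:70106110-70106169, plus strand) and *Nr2f6* (chr8:71828858-71828917, minus strand) fell more in replicates 1 to 3, as *Esrra* (chr19:6897696-6897755, minus strand) did. *Fastkd2* (chr1:63770646-63770705, plus strand) and *Orc3* (chr4:34595177-34595236, minus strand) had a positive interaction, as did *Slc44a1* (chr4:53560915-53560974, plus strand), which encodes a choline transporter-like protein and changed in opposite directions (interaction 0.62, FDR 0.00323, and 0.49 with GC correction, FDR 0.0226, where the response of replicates 1 to 3 was 0.02). The 60 bases follow the canonical GENCODE transcript on GRCm39, 5′ to 3′ in the sense of the transcript, and capitals mark G and C.
Esrra: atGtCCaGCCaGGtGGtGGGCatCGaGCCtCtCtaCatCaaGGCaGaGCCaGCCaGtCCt
Slc16a11: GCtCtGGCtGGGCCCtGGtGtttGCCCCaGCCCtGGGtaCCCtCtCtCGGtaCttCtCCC
Nr2f6: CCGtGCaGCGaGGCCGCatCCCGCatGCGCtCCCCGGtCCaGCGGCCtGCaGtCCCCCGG
Fastkd2: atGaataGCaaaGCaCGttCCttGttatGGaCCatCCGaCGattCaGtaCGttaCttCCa
Orc3: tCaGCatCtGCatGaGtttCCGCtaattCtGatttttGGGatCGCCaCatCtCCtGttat
Slc44a1: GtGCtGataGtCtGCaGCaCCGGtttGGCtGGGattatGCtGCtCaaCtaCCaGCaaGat
G and C make up 60%, 66.7% and 78.3% of the stretches of *Esrra*, *Slc16a11* and *Nr2f6*, 43.3% of those of *Fastkd2* and *Orc3*, and 51.7% of that of *Slc44a1*, which lies between them. A stretch of 60 bases describes these genes only, and the GC values above are those of whole transcripts.

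Among the genes that fell at EPS 0h in replicates 1 to 3 only, *Rnf5*, which encodes a membrane-anchored ubiquitin ligase of the endoplasmic reticulum, had the largest difference of the 3 named by size. Its levels at Rest were 19.4, 19.2 and 22.7 RPM in replicates 1 to 3 and 19.5, 19.6 and 16.9 RPM in replicates 4 to 6. At EPS 0h they were 6.18, 6.62 and 6.13 RPM in replicates 1 to 3 and 17.6, 20.2 and 21.6 RPM in replicates 4 to 6. The sets of 3 did not overlap after EPS and overlapped at Rest. The interaction was -1.76 (SE 0.152, FDR 2.62e-05), -1.64 with GC correction (FDR 3.3e-05) and -1.78 (FDR 0.134) in the 18-library fit. *Rnf5* was picked by class, so a pass with GC correction was a condition of its choice. At EPS 3h, *Rnf5* was at 6.71, 3.29 and 18.6 RPM in replicates 1 to 3 and at 16.7, 15.7 and 14.1 RPM in replicates 4 to 6, with 18.6 RPM in EPS 3h replicate 3. The interaction without that library was -1.77 (FDR 0.000131), and -0.83 (FDR 0.472) with it.

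*Nr2f6*, an orphan nuclear receptor that represses transcription, fell from a mean of 28.1 RPM (SD 2.63, n = 3) to 12.3 RPM (SD 1.99) in replicates 1 to 3 and was at 32.5 (SD 6.68) and 35.4 RPM (SD 3.26) in replicates 4 to 6. Its interaction was -1.30 (FDR 0.00162), and -0.80 with GC correction (FDR 0.0133). *Dmrta2*, a DM-domain transcription factor, fell from 12.4 (SD 0.668) to 5.42 RPM (SD 0.834) and was at 17.3 (SD 2.55) and 20.1 RPM (SD 1.83) in replicates 4 to 6 (interaction -1.39, FDR 0.000651, and -0.84 with GC correction, FDR 0.00951). *Hoxc11*, a homeobox factor of posterior patterning, was called in the 18-library fit too. It was at 26.9, 29.0 and 28.9 RPM at Rest and at 15.4, 13.2 and 15.5 RPM at EPS 0h in replicates 1 to 3. In replicates 4 to 6 it was at 27.1, 24.5 and 24.1 RPM at Rest and at 25.8, 22.6 and 25.9 RPM at EPS 0h, which overlap. The interaction was -0.92 (SE 0.163, FDR 0.0419) with 18 libraries and -0.90 (FDR 0.00127) with 12. *Orc3*, a subunit of the origin recognition complex, is a small difference on the positive side, with a mean of 38.4 (SD 0.588) and 50.7 RPM (SD 0.237) in replicates 1 to 3 and 37.6 (SD 1.85) and 33.3 RPM (SD 3.14) in replicates 4 to 6. Its interaction was 0.60 (SE 0.113, FDR 0.00592), and 0.43 with GC correction (FDR 0.0305), and it shares bases with *Akirin2* and *Rars2*.

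In replicates 4 to 6 only, *Ddit4* rose at EPS 0h. *Ddit4* encodes REDD1, a stress-induced inhibitor of the kinase complex mTORC1. Replicates 1 to 3 were at 29.8, 34.2 and 31.4 RPM at Rest and at 31.6, 33.1 and 29.5 RPM at EPS 0h. Replicates 4 to 6 were at 38.0, 38.9 and 39.8 RPM at Rest and at 103, 91.0 and 106 RPM at EPS 0h. The 3 stimulated libraries of replicates 4 to 6 lay above all others, and Rest and EPS 0h overlapped in replicates 1 to 3. The log2FC was -0.04 (SE 0.0846, FDR 0.745) and 1.32 (SE 0.0811, FDR 3.19e-08), and the interaction was -1.36 (SE 0.117, FDR 2.62e-05) with 12 libraries and -1.38 (FDR 0.0458) with 18. With GC correction the interaction was -1.05 (FDR 0.000418) and *Ddit4* also rose in replicates 1 to 3, by 0.39 (FDR 0.00167). At EPS 3h its levels were 18.3, 21.4 and 33.1 RPM in replicates 1 to 3, the last in EPS 3h replicate 3, and 74.3, 78.6 and 48.1 RPM in replicates 4 to 6. Without that library *Ddit4* fell in replicates 1 to 3 (log2FC -0.73, FDR 0.000467) and rose in replicates 4 to 6 (0.75, FDR 6.68e-05), with an interaction of -1.48 (FDR 0.000211), and with it the interaction was -1.17 (FDR 0.0759).

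*Spsb3*, a SOCS box protein, rose at EPS 0h from 4.22 (SD 0.733) to 9.81 RPM (SD 0.475) in replicates 4 to 6 and was at 5.30 (SD 0.195) and 5.99 RPM (SD 0.40) in replicates 1 to 3 (interaction -1.02, FDR 0.00771, and -0.83 with GC correction, FDR 0.0411). *Slc10a3*, of the bile acid transporter family, went the other way: it fell from 15 (SD 1.25) to 8.20 RPM (SD 0.405) in replicates 4 to 6 and was at 9.72 (SD 0.739) and 8.80 RPM (SD 1.09) in replicates 1 to 3 (interaction 0.75, FDR 0.0123, and 0.83 with GC correction, FDR 0.011). The fallen level of replicates 4 to 6 lay in the range of replicates 1 to 3 after EPS. *Slc10a3* lies within *Ubl4a* on the same strand, and *Spsb3* overlaps *Nubp2*, so their reads cannot be told apart with certainty.

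Some genes responded in both ranges of replicates but unequally, or in opposite directions. *Slc16a11*, of the monocarboxylate transporter family, fell in both. At Rest it was at 32.1, 35.6 and 32.0 RPM in replicates 1 to 3 and at 51.0, 41.1 and 46.5 RPM in replicates 4 to 6. At EPS 0h it was at 6.23, 5.25 and 6.75 RPM and at 20.4, 23.6 and 27.3 RPM. The ranges of the replicates did not overlap in either condition. The log2FC was -2.47 (SE 0.134) in replicates 1 to 3 and -1.0 (SE 0.116) in replicates 4 to 6, with an interaction of -1.47 (SE 0.177, FDR 0.000341), -0.96 with GC correction (FDR 0.00488) and -1.49 (FDR 0.0805) with 18 libraries. *Slc16a11* overlaps its relative *Slc16a13*. *Pabpn1*, the nuclear poly(A)-binding protein, was at 16.3, 20.8 and 22.6 RPM at Rest and at 3.31, 2.35 and 2.83 RPM at EPS 0h in replicates 1 to 3, and at 8.24, 9.21 and 7.25 RPM and 4.59, 3.43 and 5.24 RPM in replicates 4 to 6. It fell in both, and replicates 1 to 3 were the higher at Rest and the lower after EPS. The interaction was -1.91 (SE 0.249, FDR 0.000606) with 12 libraries, -1.75 (FDR 0.00137) with GC correction and -1.92 (FDR 0.0419) with 18. On the positive side, *Fastkd2*, a mitochondrial RNA-binding protein, rose from 17.2 (SD 0.310) to 37.3 RPM (SD 1.08) in replicates 1 to 3 and from 18.1 (SD 1.14) to 23.8 RPM (SD 3.34) in replicates 4 to 6 (interaction 0.74, FDR 0.00537, and 0.62 with GC correction, FDR 0.0249).

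*Crebzf*, a basic leucine zipper factor, responded in opposite directions. In replicates 1 to 3 it was at 51.0, 55.2 and 58.0 RPM at Rest and at 39.0, 37.7 and 36.6 RPM at EPS 0h. In replicates 4 to 6 it was at 28.9, 34.3 and 38.6 RPM at Rest and at 58.5, 67.4 and 62.0 RPM at EPS 0h. The order of the replicates at Rest was thus turned after EPS, with no overlap within either condition. The 18-library fit gave a log2FC of -0.54 (FDR 0.00562) and 0.88 (FDR 0.000159) and an interaction of -1.42 (SE 0.202, FDR 0.0103), and the 12-library fit one of -1.40 (FDR 9.12e-05), and -1.37 (FDR 0.000227) with GC correction. *H2aj*, a histone H2A variant, went from a mean of 10.9 (SD 2.13) to 5.73 RPM (SD 0.957) in replicates 1 to 3 and from 5.88 (SD 0.419) to 9.06 RPM (SD 0.528) in replicates 4 to 6 (interaction -1.56, FDR 0.0103, 18 libraries). *Snhg20*, a small nucleolar RNA host gene, went from 24.5 (SD 3.29) to 11.6 RPM (SD 2.37) and from 12.7 (SD 0.928) to 18.2 RPM (SD 3.27) (interaction -1.60, FDR 0.0107). *Srsf5*, a splicing factor, fell in both, from 399 (SD 16.0) to 178 RPM (SD 3.30) and from 288 (SD 20.4) to 212 RPM (SD 15.6) (interaction -0.72, FDR 0.0279). With GC correction and 12 libraries the interactions of *H2aj*, *Snhg20* and *Srsf5* were -1.38, -1.46 and -0.89, each past an FDR of 0.05. None of the 8 interactions called at EPS 0h with 18 libraries held an FDR of 0.05 in every fit that left out 1 library, and without Rest replicate 2, Rest replicate 4 or EPS 0h replicate 3 the number called was 0.

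**Figure D4:**
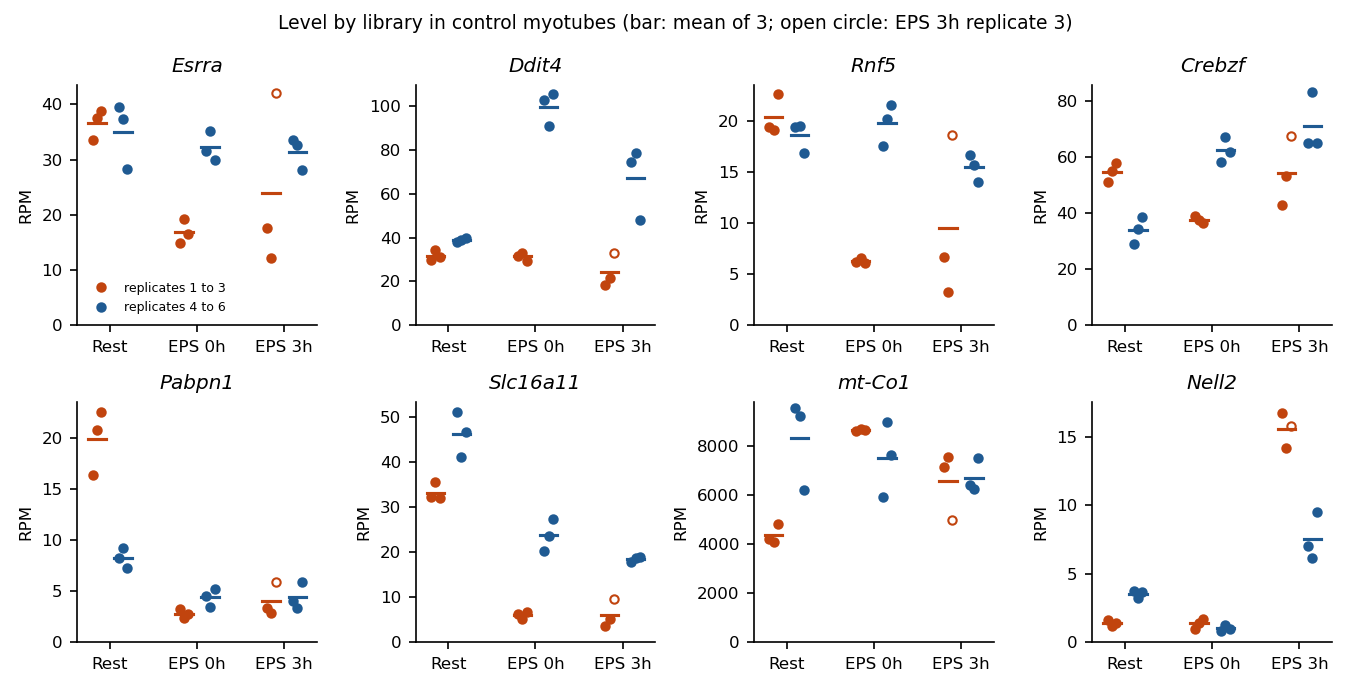
RPM by library at Rest, EPS 0h and EPS 3h for 8 genes, with points for replicates 1 to 3 and 4 to 6, a bar for the mean of 3 and an open circle for EPS 3h replicate 3. *Esrra*, *Rnf5*, *Pabpn1* and *Slc16a11* fall further in replicates 1 to 3, *Ddit4* and *Crebzf* rise at EPS 0h in replicates 4 to 6, and the y axes start at 0.

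At EPS 3h, 3 interactions held in the 18-library fit and in every fit that left out 1 library. *Nell2*, a secreted glycoprotein with EGF-like domains (chr15:94973111-95465972, minus strand), had the largest difference of the 3. It was at 1.62, 1.22 and 1.44 RPM at Rest and at 16.7, 14.2 and 15.8 RPM at EPS 3h in replicates 1 to 3, and at 3.75, 3.26 and 3.65 RPM and 7.01, 6.18 and 9.53 RPM in replicates 4 to 6. It rose in both, from the lower level at Rest to the higher one after EPS in replicates 1 to 3, EPS 3h replicate 3 included. The log2FC was 3.45 (SE 0.209) and 1.09 (SE 0.187), and the interaction was 2.36 (SE 0.281, FDR 0.00103), with an FDR of 9.5e-05 to 0.0114 without each library in turn. *Nell2* overlaps *Tmem117*.

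*Dynap*, dynactin-associated protein, rose from 21.8, 22.5 and 26.2 RPM to 82.2, 75.3 and 78.3 RPM in replicates 1 to 3 and from 44.9, 43.0 and 39.3 RPM to 63.1, 70.8 and 72.5 RPM in replicates 4 to 6. The replicates did not overlap at Rest or at EPS 3h, and the interaction was 1.04 (SE 0.134, FDR 0.00172). *Hoxc11* fell to 7.48, 8.28 and 9.07 RPM in replicates 1 to 3 and to 17.2, 18 and 13.8 RPM in replicates 4 to 6 (interaction -1.15, SE 0.168, FDR 0.00784), and thus fell in both at EPS 3h. With GC correction and without EPS 3h replicate 3 the 3 interactions were 2.40, 1.00 and -1.01. The other calls at EPS 3h with 18 libraries were *Gpr176*, an orphan G protein-coupled receptor, which went from 11.1 (SD 1.00) to 25.5 RPM (SD 1.68) and from 18 (SD 2.14) to 21.5 RPM (SD 1.89), *Armcx4*, which went from 85.8 (SD 3.32) to 46.0 RPM (SD 1.55) and from 55.6 (SD 11.1) to 56.8 RPM (SD 2.26), *Dync2i1*, a subunit of the dynein of cilia, which went from 28.5 (SD 1.05) to 18.2 RPM (SD 1.96) and from 20.5 (SD 1.69) to 23.1 RPM (SD 1.18), and *Gm4366*. In each of these 3 named genes the means of replicates 1 to 3 and 4 to 6 changed order between Rest and EPS 3h.

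Among genes that the 17-library fit called at EPS 3h in replicates 1 to 3 only, *Cox11*, a copper chaperone of cytochrome c oxidase, had an interaction of -2.55 (SE 0.369, FDR 0.00023). It was at 6.33, 8.31 and 8.95 RPM at Rest and at 1.05, 1.22 and, in EPS 3h replicate 3, 4.22 RPM in replicates 1 to 3, and at 5.58, 4.27 and 4.10 RPM and 4.42, 3.72 and 3.55 RPM in replicates 4 to 6. With EPS 3h replicate 3 the interaction was -1.60 (FDR 0.158), and without it and with GC correction -2.61 (FDR 0.000891). *Cox11* overlaps *Tom1l1* and *Stxbp4*. *Crebzf* rose in replicates 4 to 6 only at EPS 3h in this fit, by 1.04 (FDR 3.87e-07), with an interaction of -1.27 (FDR 0.000203). Its interaction with 18 libraries was -1.08 (FDR 0.0551).

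Mitochondrially encoded subunits of oxidative phosphorylation had the largest share of calls among the 26 gene lists, all positive. Of the 10 tested, 7 were called at EPS 0h and 8 at EPS 3h, and the median log2FC was 0.69 in replicates 1 to 3, against -0.37 in replicates 4 to 6, at EPS 0h, then 0.14 and -0.98 at EPS 3h. With 18 libraries, *Ddit4* at EPS 0h was the only member of any list that was called. The counts were the same with scaling by library size only. With GC correction 1 and 4 were called. The median of replicates 1 to 3 at EPS 3h changed sign, to -0.04 with 18 libraries and to -0.35 with GC correction. *mt-Co1*, a subunit of cytochrome c oxidase, was at 4193, 4081 and 4830 RPM at Rest and at 8607, 8690 and 8637 RPM at EPS 0h in replicates 1 to 3, and at 9523, 9216 and 6221 RPM and 5908, 8976 and 7622 RPM in replicates 4 to 6. Replicates 1 to 3 were the lowest libraries at Rest and overlapped the others after EPS, so the ranges differed at Rest. The log2FC was 0.97 (SE 0.152, FDR 7.73e-05) and -0.18 (SE 0.152, FDR 0.365), and the interaction was 1.15 (SE 0.215, FDR 0.00566), 0.98 with GC correction (FDR 0.034) and 1.13 (FDR 0.104) with 18 libraries. These genes are cut from shared polycistronic transcripts and are not independent of each other.

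Called interactions of cytosolic ribosomal protein and proteasome genes were more frequent at EPS 3h than at EPS 0h and mostly positive. The called share of nuclear-encoded oxidative phosphorylation subunits lay near that of all genes at EPS 3h and below it at EPS 0h. Of 74 ribosomal protein genes, 20 interactions were positive and 2 negative at EPS 3h, against 2 and 1 at EPS 0h (29.7% called, then 4.05%, beside 9.21% and 7.93% of all genes), with a median response of 0.37 in replicates 1 to 3 and -0.06 in replicates 4 to 6 at EPS 3h. *Rps6*, of the small subunit, was at 413, 444 and 461 RPM at Rest and at 782, 993 and 746 RPM at EPS 3h in replicates 1 to 3, and at 638, 600.1 and 412 RPM and 563, 502 and 572 RPM in replicates 4 to 6 (interaction 1.00, SE 0.177, FDR 0.00147). It rose in replicates 1 to 3 only, and Rest and EPS 3h overlapped in replicates 4 to 6. Of 31 proteasome subunits, 4 were positive and 1 negative at EPS 0h, then 9 and 1 at EPS 3h (16.1% and 32.3% called), among them *Psmb1* (interaction 0.69, FDR 0.00462). Of 81 nuclear-encoded subunits, none was called at EPS 0h and 8, all positive, at EPS 3h (9.88%, near the 9.21% of all genes), among them *Ndufb4* of complex I (0.97, FDR 0.00864). With EPS 3h replicate 3 the interactions of *Rps6*, *Psmb1* and *Ndufb4* were 0.95 (FDR 0.0678), 0.65 (FDR 0.098) and 0.87 (FDR 0.131). With GC correction the positive calls at EPS 3h numbered 19, 6 and 7, and with scaling by library size only 16, 7 and 8. That scaling also called 4 nuclear-encoded subunits at EPS 0h, all negative.

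These 3 lists moved with Rest replicate 6, in which ribosomal protein and mitochondrially encoded transcripts were lower than in its partners. Without that library the ribosomal protein genes had 30 positive and 2 negative interactions at EPS 0h, then 47 and 2 at EPS 3h, and the proteasome subunits 10 and 1 and then 14 and 1. The nuclear-encoded subunits had 21 and 2 (28.4% called) and then 30 and 1 (38.3%). Mitochondrially encoded subunits then had 9 and 8 positive calls of 10. Over all genes the same fits gave 779 positive and 991 negative interactions at EPS 0h (12.6%), then 657 and 1381 at EPS 3h (14.6%). The part of Rest replicate 6 in these counts was not tested.

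Called interactions of immediate early and sarcomere genes were mostly negative, as were those of all genes (717 of 1110 at EPS 0h, then 958 of 1289 at EPS 3h). Of 41 immediate early genes, 1 interaction was positive and 6 negative at EPS 0h (17.1% called, beside 7.93% of all genes), then 0 and 10 at EPS 3h (24.4%, beside 9.21%). *Klf4*, a zinc finger transcription factor, was at 155, 145 and 141 RPM at Rest and at 135, 139 and 138 RPM at EPS 0h in replicates 1 to 3, and at 138, 149 and 140.2 RPM and 193, 186 and 201 RPM in replicates 4 to 6. It rose in replicates 4 to 6 only (interaction -0.52, SE 0.0982, FDR 0.00593, and FDR 0.0679 with GC correction). *Cebpb*, a leucine zipper factor, fell from 152 (SD 20.4) to 90.5 RPM (SD 13.7) in replicates 1 to 3 and was at 160.4 (SD 12.4) and 190.5 RPM (SD 34.4) in replicates 4 to 6 (interaction -0.98, FDR 0.00761, and FDR 0.339 with GC correction). With GC correction 0 positive and 1 negative interactions were left at EPS 0h, then 0 and 2 at EPS 3h. Of 37 sarcomere genes, 2 were positive and 5 negative at EPS 0h, then 1 and 9 at EPS 3h (18.9% and 27.0% called), and with GC correction 1 and 2, and 2 and 2. Without Rest replicate 6 the sarcomere genes had 5 positive and 6 negative interactions at EPS 0h, then 7 and 11 at EPS 3h, so their negative preponderance was smaller, and the immediate early genes had 1 and 8, then 0 and 11. With scaling by library size only the counts were 0 and 6, and 0 and 10, for immediate early genes and 2 and 5, and 1 and 11, for sarcomere genes. *Myh2*, a fast myosin heavy chain, was at 71.2, 84.1 and 90.3 RPM at Rest and at 38.7, 31.9 and, in EPS 3h replicate 3, 67.2 RPM at EPS 3h in replicates 1 to 3, and at 36.4, 47.6 and 27.1 RPM and 50.7, 38.0 and 41.3 RPM in replicates 4 to 6 (interaction -1.47, SE 0.234, FDR 0.000902, and FDR 0.00361 with GC correction). It fell in replicates 1 to 3 only, to the level that replicates 4 to 6 had at Rest. *Tcap*, the titin cap, was the positive call at EPS 3h, falling from 111 (SD 6.65) to 66.8 RPM (SD 17.5, EPS 3h replicate 3 at 85.7 RPM included) and from 60.5 (SD 8.50) to 16.1 RPM (SD 2.92), with an interaction of 0.94 (FDR 0.00343) without that replicate. *Stac3*, of excitation-contraction coupling, fell in replicates 1 to 3 only at EPS 3h (log2FC -0.97 and -0.17, interaction -0.80, FDR 0.000647). With EPS 3h replicate 3 the interactions of *Myh2*, *Tcap* and *Stac3* were -1.06 (FDR 0.146), 1.18 (FDR 0.0671) and -0.63 (FDR 0.117).

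**Figure D5:**
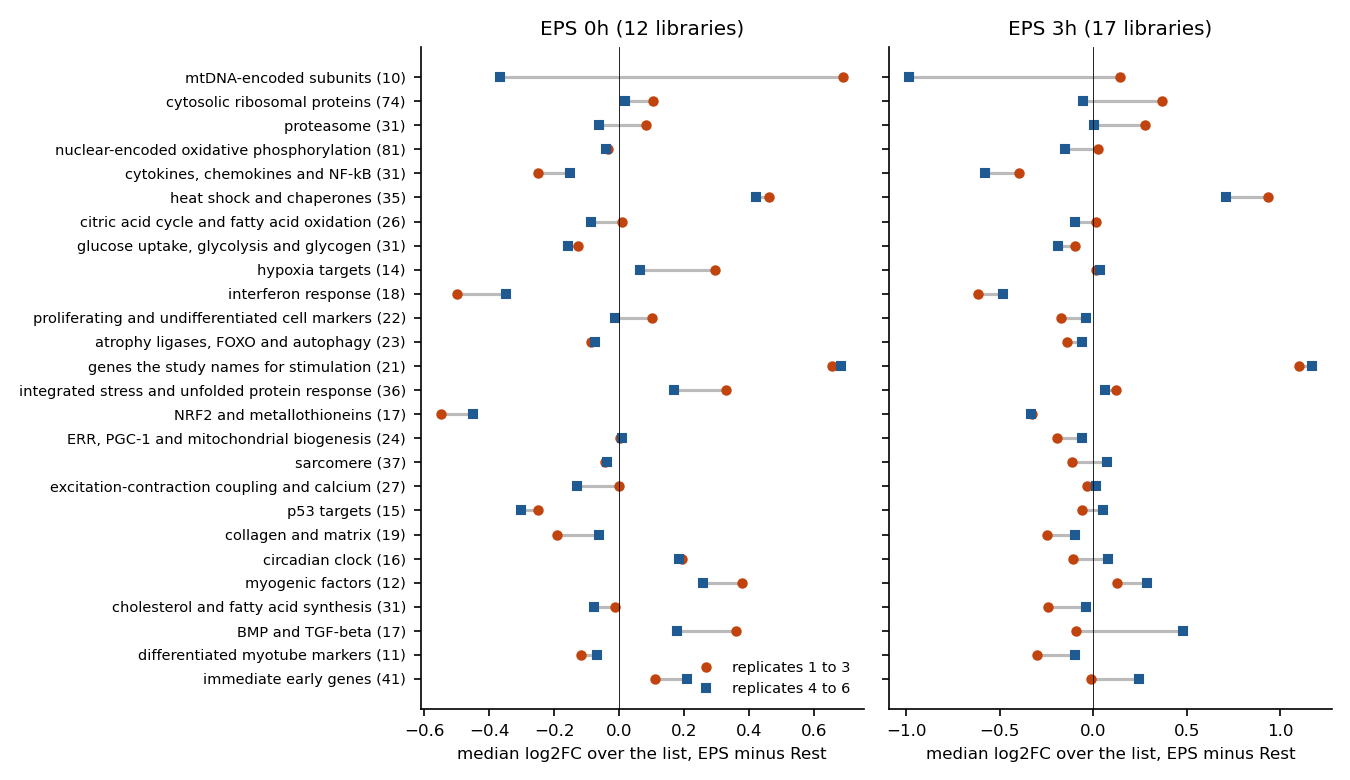
Points give the median log2FC of EPS minus Rest over the tested members of each gene list, for replicates 1 to 3 and 4 to 6, at EPS 0h (12 libraries) and EPS 3h (17 libraries). Mitochondrially encoded subunits lie at 0.69 and -0.37 at EPS 0h, and heat shock genes at 0.46 and 0.42.

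Genes responding alike were defined as past an FDR of 0.05 in the same direction in both ranges of replicates, with the whole 95% interval of the difference within 1 on the log2 scale. In the 18-library fit there were 2094 at EPS 0h, 1281 higher and 813 lower, which is 71.8% of the genes that responded in both, and 3722 at EPS 3h, 1927 higher and 1795 lower (73.9%). Of these, 1 at EPS 0h (*Srsf5*) and 0 at EPS 3h also had a called interaction, in a fit that called only 8 and 7. In the 12-library fit 3281 genes met the definition at EPS 0h, and in the 17-library fit 4697 did so at EPS 3h. A called interaction was also present for 174 and 332 of these, so alike and different were not exclusive classes. Of 21 tested genes that the study names for stimulation, 10 responded alike with 18 libraries at EPS 0h, then 12 at EPS 3h. Over all 13995 genes the counts were 2094 and 3722. *Atf3*, an activating transcription factor of the stress response, was at 207, 163 and 144 RPM at Rest and at 389, 474 and 430.0 RPM at EPS 0h in replicates 1 to 3, and at 170.2, 142 and 159 RPM and 429, 441 and 427 RPM in replicates 4 to 6. All stimulated libraries lay above all Rest libraries, and the difference of the responses was -0.13 (95% interval -0.47 to 0.21). *Nr4a1*, *Nr4a3*, *Maff*, *Myf6*, *Pparg*, *Ppp1r3c*, *Vgll4* and *Gabpa* also responded alike at both time points. *Ppargc1a* did so at EPS 0h, from 8.55, 8.54 and 8.75 RPM to 13.1, 13.0 and 13.1 RPM and from 4.14, 4.37 and 4.14 RPM to 6.81, 5.94 and 6.71 RPM. Its level was lower in replicates 4 to 6 in every library, while the log2FC was 0.60 (SE 0.161) and 0.62 (SE 0.173) and their difference -0.02 (95% interval -0.51 to 0.47). In the paper's own sequencing analysis *Ppargc1a* was not called for EPS at an FDR of 0.05. The paper names variability between samples as a possible reason.

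The genes with the largest shared responses included *Clu*, the secreted chaperone clusterin, which rose at EPS 0h from 6.02, 4.43 and 3.38 RPM to 55.2, 54.3 and 38.9 RPM and from 5.49, 5.47 and 8.37 RPM to 77.1, 55.1 and 58.9 RPM. The difference of its responses was 0.12 (95% interval -0.45 to 0.70). *Aldh3a1*, an aldehyde dehydrogenase, fell at EPS 0h by 2.75 and 2.60 on the log2 scale. At EPS 3h, *P2rx7*, an ATP-gated channel, rose by 3.79 and 3.49, and *Irf1*, interferon regulatory factor 1, fell by 2.52 and 2.46. *Bdkrb1*, the bradykinin B1 receptor, fell by 3.09 in both. The inducible chaperone *Hspa1a* rose in both by a large factor, by 2.82 and 3.68 at EPS 0h and by 4.76 and 5.37 at EPS 3h, but the interval of the difference reached beyond 1 on the log2 scale, so that it was not counted as alike (-1.67 to -0.06 at EPS 0h, FDR 0.332). Of 35 heat shock and chaperone genes, 22 responded alike at EPS 0h (12 libraries) and 28 at EPS 3h (17 libraries). Over all 13995 genes, 3281 and 4697 did so. Among the 35, 2 and 3 interactions were called (5.71% and 8.57%, near the 7.93% and 9.21% of all genes).

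Responders were also chosen in libraries outside the contrast. Genes past an FDR of 0.05 with an absolute log2FC above 1 in the 18 libraries of *Tug1* KD myotubes, which share no library with the control myotubes, were read in both ranges of control replicates. The control values here are from the 18-library fit. The 1181 that rose at EPS 0h had a median log2FC of 1.41 in replicates 1 to 3, against 1.54 in replicates 4 to 6, and 1169 were positive in both. The 387 that fell had medians of -1.25 and -0.90, with 380 negative in both. At EPS 3h the 1565 that rose had medians of 1.73 and 1.69, and the 646 that fell -1.33 and -1.10. Without EPS 3h replicate 3 the medians were 1.77 and 1.65, and -1.51 and -1.13. Replicates 1 to 3 thus had the larger median fall at both time points.

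The ranges of replicates differed at Rest as well. Between replicates 1 to 3 and 4 to 6, 30.6% of genes differed at Rest and 43.7% at EPS 0h in the 12-library fit, and 29.5% at Rest and 36.5% at EPS 3h in the 17-library fit. Of the 1110 genes with a called interaction at EPS 0h, 654 differed after EPS only, 220 at Rest only, 231 in both conditions and 5 in neither. Of the 1289 at EPS 3h, 762 differed after EPS only, 254 at Rest only, 247 in both and 26 in neither. Of all 13995 genes, 3291 differed after EPS only at EPS 0h, 1465 at Rest only, 2818 in both and 6421 in neither. At EPS 3h these counts were 2820, 1838, 2294 and 7043. An interaction needs a difference in at least 1 condition, so that few called genes fell in neither follows from how they were chosen. *Esrra*, *Rnf5* and *Hoxc11* overlapped at Rest, while *Pabpn1*, *Crebzf*, *Nell2*, *Dynap* and *Ppargc1a* did not, which describes these named genes only.

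The same contrast in *Tug1* KD myotubes, replicates 1 to 3 against 4 to 6, gave 654 called genes at EPS 0h (4.67%) and 7 at EPS 3h (0.05%), and 22 and 7 with GC correction. Of the 1110 control calls at EPS 0h, 1068 (96.2%) had the same sign in *Tug1* KD myotubes, against 69.9% of all genes, and 245 were called there. Of the 1289 at EPS 3h, 1135 (88.1%) had the same sign, against 61.2% of all genes, and 4 were called. *Esrra* had, in *Tug1* KD myotubes, an interaction of -1.29 (FDR 0.0349) at EPS 0h, against -0.80 (FDR 0.247) at EPS 3h. *Ddit4*, *Rnf5* and *Crebzf* had -1.08 (FDR 0.0266), -2.01 (FDR 0.0327) and -0.82 (FDR 0.0395) at EPS 0h. The *Tug1* KD values of these genes and of *Esrra* and the shares with the same sign are without GC correction. The called genes were chosen for their difference, so all genes are an unlike comparison for those shares. The control and *Tug1* KD wells of a replicate number may come from the same experiment, so the 2 contrasts are not independent tests of it.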

How the data were processed

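RNA was sequenced from the 36 libraries of the series, of which the 18 control libraries were analysed here and the 18 *Tug1* KD libraries were used only where named. The values are whole-number counts per gene deposited by the authors, who checked reads with FastQC 0.11.7, trimmed them with fastp 0.14.1 and aligned them with STAR 2.5 to GRCm39, per the submitters' processing notes and the paper. The counting tool's mode and strand setting are not given in the sources used here, and overlapping genes may share reads. Of 55416 genes, 1492 without a name hold 0.0327% of the counts.

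Libraries were grouped by condition and replicate number from their titles. The division into replicates 1 to 3 and 4 to 6, the gene lists and *Esrra* as an example were chosen with earlier results of these data known. The 13995 genes that reached 1 RPM in 12 or more of the 36 libraries were normalized by TMM and tested with the quasi-likelihood test of edgeR 4.0.16 in R 4.3.3 on the 6 cells of condition and replicate range, with Benjamini-Hochberg adjustment over all genes and an FDR of 0.05. The SE is the Wald SE of the fitted log2FC. No pair of libraries of a group differed by as little as counting error (chi-square per degree of freedom at least 5.37). GC correction added to each library an offset, the lowess (span 0.3) of its deviation from the mean library on transcript GC content, known for 13946 genes (99.6%).

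Because EPS 3h replicate 3 stood apart, fits to the 12 libraries of the EPS 0h contrast and to 17 libraries without it were added after the data had been seen. Genes were named by size of the interaction within each class, among named genes of at least 5 RPM whose call held when each library was left out, with up to 3 per gene list, the genes the study names and the largest shared responses. The rule was applied to the added fits with a further condition for genes picked by class. Their interaction also had to pass the FDR threshold with the same sign after GC correction. All genes called with 18 libraries were named. Deviations of same-numbered libraries from their group means correlated at -0.158 to 0.319, above 0.1 in 9 of 18 pairs. Differently numbered libraries were not compared in this way, so whether same-numbered libraries pair was not tested. In a simulation over the 13995 genes, 100 were changed by 1 and 100 by 2 on the log2 scale, and the interaction recovered 68% and 93% with 18 libraries at EPS 0h (7 false calls), 80% and 96% with 12 (17 false calls), and 76% and 91% with 17 at EPS 3h (14 false calls). Its counts were drawn independently for each gene and library, without a GC trend or a library that stood apart. These figures therefore do not give the rate of false calls in the real libraries. Alternatives were DESeq2 1.42.0, limma-voom (limma 3.58.1), scaling by library size, other filters, all 36 libraries, a replicate block and each library left out. Gene positions and sequences come from the GENCODE annotation and genome of GRCm39. The results for 1 gene that the naming rule gave are not reported here.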

Additional observations from a re-analysis of the deposited data

Results flagged for a closer look

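The results below were marked because a test of the difference itself, the edgeR interaction of EPS and replicate range in 18 control libraries, passed an FDR of 0.05, for 8 genes at EPS 0h and 7 at EPS 3h. At EPS 0h the differences in log2FC, replicates 1 to 3 minus replicates 4 to 6, were -1.92 for *Pabpn1*, -1.60 for *Snhg20*, -1.56 for *H2aj*, -1.42 for *Crebzf*, -1.38 for *Ddit4*, -0.92 for *Hoxc11*, -0.72 for *Srsf5* and 0.92 for *Gm4366*. At EPS 3h they were 2.36 for *Nell2*, 1.04 for *Dynap*, 0.95 for *Gm4366*, 0.94 for *Gpr176*, -0.82 for *Dync2i1*, -0.93 for *Armcx4* and -1.15 for *Hoxc11*. *Gm4366* is a processed pseudogene, and reads of the gene it was copied from can be assigned to it, so its value is uncertain. Groups of 3 libraries are too small to be examined for single outlying values.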

How the results depend on the processing

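The interaction at EPS 0h passed for 8 genes with 18 libraries, 270 with DESeq2, 37 with GC correction, 312 without a filter on low counts, 3 with the replicate block, 0 at an FDR of 0.01 and 0 to 1088 with 1 library left out. With the 12 libraries compared it passed for 1110, for 1521 with DESeq2, 1065 with limma-voom, 1229 with library size only, 517 with GC correction and 548 with the replicate block. At EPS 3h it passed for 7 genes, 334 with DESeq2, 199 with GC correction, 47 with all 36 libraries, 13 at 5 RPM or more, 28 with library size only, 241 without a filter, 3 with the 12 libraries compared, 11 with the replicate block, 3 at an FDR of 0.01 and 3 to 1289 with 1 library left out by the same test. Without EPS 3h replicate 3 it passed for 1289, for 1209 with limma-voom, 1427 with library size only, 741 with GC correction, 1091 with the replicate block and 1532 with DESeq2. Genes responding in 1 range only at EPS 0h numbered 3 with 18 libraries, 191 with DESeq2, 18 with GC correction, 7 with 36 libraries, 202 without a filter, 693 with 12 libraries, 0 with the block, 0 at an FDR of 0.01 and 0 to 695 with 1 left out. At EPS 3h they numbered 3, 207, 118, 31 and 117 in the same order, then 8 at 5 RPM, 10 with library size only, 0 with 12 libraries, 6 with the block, 0 at an FDR of 0.01 and 0 to 595. Responses at EPS 0h passed for 4115 genes (replicates 1 to 3) and 2256 (replicates 4 to 6) at an FDR of 0.01, and with 1 library left out for 4829 to 7503 and 2656 to 4946, at EPS 3h for 6171 to 8697 and 5173 to 7648. Genes responding alike at EPS 0h numbered 1249 at an FDR of 0.01, 1061 with an interval within a fold of 1.5, 3281 with 12 libraries and 1453 to 3042 with 1 left out, and at EPS 3h 1894 with that interval and 2932 to 4697. In *Tug1* KD myotubes GC correction left 22 calls at EPS 0h. The causes of these shifts were not tested. Whether same-numbered libraries pair was not tested, so the counts with the block do not show whether an effect is weaker. GC correction, the 12-library and 17-library fits and the list counts without Rest replicate 6 were chosen after seeing the data. Scaling by library size moved the median interaction over all genes from -0.02 to -0.07 at EPS 0h and from -0.04 to -0.12 at EPS 3h.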

Other observations

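Called differences between the responses of replicates 1 to 3 and 4 to 6 in further gene lists are given from the 12-library fit at EPS 0h (7.93% of all genes called) and the 17-library fit at EPS 3h (9.21%). Of 15 p53 targets, 1 interaction was positive and 3 negative at each time point (26.7% called), with 0 left at EPS 0h and 1 of each sign at EPS 3h with GC correction, among them *Bbc3*, the apoptosis factor PUMA, which at EPS 3h fell by 2.71 and 1.09 on the log2 scale (interaction -1.63, SE 0.242, FDR 0.000379, and -0.91, FDR 0.318, with EPS 3h replicate 3). Of 36 genes of the integrated stress and unfolded protein responses, 3 were positive and 2 negative at EPS 0h, then 2 and 3 at EPS 3h, and with GC correction 1 and 1, then 2 and 1. *Dnajb9*, a chaperone of the endoplasmic reticulum, rose at EPS 0h from 19.2 (SD 1.55) to 33.8 RPM (SD 2.84) in replicates 1 to 3 and was at 24.7 (SD 3.61) and 23.3 RPM (SD 1.37) in replicates 4 to 6 (interaction 0.92, SE 0.153, FDR 0.00272).

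Of 31 genes of cholesterol and fatty acid synthesis, 1 positive and 1 negative interaction was called at EPS 0h, then 0 and 3 at EPS 3h, and of 19 collagen and matrix genes 1 and 3 (21.1%), and 0 and 2. Of 17 genes of BMP and TGF-beta signalling, 2 were positive and 2 negative at EPS 0h (23.5%), then 1 and 1 at EPS 3h. Of 16 circadian clock genes, 2 were positive and 1 negative at EPS 0h (18.8%), then 1 and 0 at EPS 3h. With so few members, a single gene moves these shares by several percentage points. With GC correction the positive and negative calls at EPS 0h were 1 and 2 for cholesterol and fatty acid synthesis. They were 0 and 0 for collagen and matrix, 0 and 1 for BMP and TGF-beta signalling and 3 and 1 for clock genes. At EPS 3h they were 0 and 2, 0 and 0, 1 and 0, and 1 and 0 in the same order. Of 12 myogenic factors and 22 markers of proliferating or undifferentiated cells, none was called at either time point, nor with 18 libraries. At the shares of all genes, lists this small would hold few calls. With GC correction, and also with scaling by library size only, 1 myogenic factor was called at EPS 0h and 1 marker at EPS 3h. Without Rest replicate 6, 1 myogenic factor was called at EPS 3h and 1 marker at each time point. Medians of the response of both lists at EPS 0h and at EPS 3h stand in the plot of gene lists.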
